A study of Homo sapiens with 25 samples.

Results

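The comparison set A549 cells transfected with the antisense oligonucleotide ASO3 against long noncoding RNA candidate 240 (named CHiLL2 in the labels) against A549 cells given a neutral control oligonucleotide, Qiagen's Control A. A549 is a human lung adenocarcinoma line. The 6 libraries, 3 ASO3 and 3 control, carry replicate numbers 3, 4 and 5 in both groups and were taken by these labels from the 25 libraries of the series. Both oligonucleotides were used at 25 nM and RNA was taken 24 h after transfection. The series also holds 3 A549 libraries with ASO1, a different oligonucleotide against candidate 240, and 2 ASO3 and 2 control libraries of NCI-H460, a large cell lung carcinoma line, which are used below to place the A549 response. A549 libraries given oligonucleotides labelled ASO3 and ASO5 against another candidate, number 42, entered the fit for the spread and the level filter only. The NCI-H460 fits likewise held that line's ASO1 and candidate 42 libraries. Whether the libraries of a group were separate cultures is not stated in the labels, so p-values measure the spread between these libraries.

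An antisense oligonucleotide of this kind pairs with its RNA in the nucleus and recruits RNase H, which cuts the paired RNA strand. Base pairing to other transcripts, introns included, is a known property of the class. A549 cells lack KEAP1 function, so that NRF2 targets stand high in them without treatment.

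Levels are in TPM, the length-normalised abundance as deposited, and a change is the log2 ratio of ASO3 over control on the log2(TPM + 0.5) scale, with its standard error (SE) and a Benjamini-Hochberg adjusted p from limma over 14740 genes. No counts were used, so the depth behind a value is unknown. Mitochondrial transcripts took 7.43% to 9.82% of the total in ASO3 libraries and 7.64% to 9.98% in control libraries (8.93% ± 1.31 and 9.06% ± 1.25, SD, n = 3 each; exact two-sided permutation p = 0.7, where 3 against 3 cannot go below 0.1). ASO3 replicate 3 stood apart: its first principal component score over the A549 libraries was -71.9, against -10.5 and -11.7 in the other ASO3 libraries, and its deposited TPM summed to 1179224. Over genes it correlated at 0.962 with control replicate 3 and at 0.956 and 0.959 with the other ASO3 libraries. The count over all genes and the counts of several lists are therefore given with and without it. Control replicate 5 stood apart for the ATF4 targets and the heat shock list described below. All 18 A549 identity genes, among them KRT8, KRT18 and AKR1B10, passed the level filter, while PTPRC and CD3E of the leukocyte list were at 0 in all 6 libraries, all 6 endothelial markers were under 1 TPM and 7 of 8 fibroblast markers were under 1 TPM. Of 15 lung lineage markers, only SFTPA1, an alveolar gene, and SCGB1A1, an airway gene, were at 0 in all 6 libraries. In all, 9 of the 15 were under 1 TPM in all 6 libraries and 6 passed the level filter. LPCAT1, for example, held 29.9 to 33.7 TPM with ASO3 and 24.9 to 32.3 TPM with control. MUC5B, an airway mucin, fell from 11.6 to 23.8 TPM with control to 3.93 to 5.68 TPM with ASO3. Its log2 change was -1.83 ± 0.46 (adjusted p = 0.0155), a call lost without control replicate 4 or 5. In bulk RNA, fewer cells expressing a gene and less of its RNA per cell cannot be told apart.

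The labels do not name the gene of candidate 240, which is taken here to be AC015712.6, a long noncoding RNA gene at chr15:100849831-100876836 (plus strand, the authors' hg38 annotation). Its level was 0, 0.0297 and 0.0164 TPM in the ASO3 libraries, against 0.268, 0.418 and 0.354 TPM in the control libraries, a mean of 4.44% of control. The 3 ASO1 libraries held 0.128, 0.249 and 0.178 TPM, between the ASO3 and control libraries. All these levels lay under the 1 TPM filter. In the fit without a filter the log2 change with ASO3 was -0.71 ± 0.12 (SE; adjusted p = 0.00357), a value that the pseudocount of 0.5 TPM compresses, and the ASO3 against ASO1 difference had an adjusted p of 0.0673. The overlapping AC015712.1, at chr15:100849561-100861756 on the same strand, held 0.568, 0.310 and 0.307 TPM with ASO3, against 2.48, 2.19 and 2.94 TPM with control (log2 change -1.77 ± 0.25, adjusted p = 0.000311). Reads of these overlapping genes may be shared between them.

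With ASO3, 2036 of 14740 genes (13.8%) passed an adjusted p of 0.05, of which 884 were higher (6.0% of genes tested) and 1152 lower (7.82%). The median change of all genes tested was -0.01. Changes were mostly moderate: 251 called genes rose and 351 fell by over 1 on the log2 scale, and 27 rose and 46 fell by over 2. All 3 ASO3 libraries lay above all 3 control libraries in 1803 genes (12.2%) and below them in 1951 genes (13.2%). The count moved with the model of the spread. With the replicate number as a block, which pairs the libraries, 3696 genes were called (25.1%; 1636 higher, 11.1%, and 2060 lower, 14.0%), and these held all 2036 with the same sign. With the spread estimated from the 6 libraries alone, 2436 were called when the libraries were paired by number (16.5%; 1014 higher, 6.88%, and 1422 lower, 9.65%) and 652 when they were not (4.42%; 267 higher, 1.81%, and 385 lower, 2.61%). Of the 145 called genes examined by name, 12 lost their call in the paired 6-library fit and 70 in the unpaired one. Without ASO3 replicate 3 there were 2019 (13.7%; 841 higher, 5.71%, and 1178 lower, 7.99%), of which 1574 were shared with the full set.

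Among called genes whose higher group averaged 5 TPM or more and whose groups did not overlap, those that fell furthest included transcription factors, a replication factor and neuronal and cytoskeletal scaffolds. NR3C1, the glucocorticoid receptor, held 1.49, 3.52 and 2.61 TPM with ASO3, against 16.1, 29.8 and 36.4 TPM with control (log2 change -3.18 ± 0.32, adjusted p = 2.17e-05). NFIC, a nuclear factor I transcription factor, held 3.19, 7.51 and 5.95 TPM with ASO3, against 38.6, 47.0 and 48.9 TPM with control. RBFOX3, a splicing regulator best known from neurons, held 3.54, 1.80 and 2.72 TPM with ASO3, against 18.5, 28.7 and 33.9 TPM with control. The separation of the groups was a condition for naming these genes. Control levels of NR3C1 and RBFOX3 were lowest in replicate 3. NFIC fell by 2.97 (SE 0.22) and RBFOX3 fell by 3.11 on the log2 scale (adjusted p = 1.57e-05 for RBFOX3). GRIP1, a scaffold protein that binds glutamate receptors, varied more between libraries, with 0.128, 1.26 and 0.224 TPM in ASO3 libraries and 7.92, 4.21 and 11.8 TPM in control libraries (-3.08 ± 0.56, adjusted p = 0.00206). BAZ2B, a bromodomain protein (-2.98), COQ8B, a factor of coenzyme Q synthesis (-2.84), CAP2, an actin regulator (-2.78), GMDS, an enzyme of GDP-fucose synthesis (-2.78), LRMDA (-2.69) and SEMA4D, a semaphorin (-2.65 ± 0.18), completed the 12 largest falls chosen in this way together with MCM6 and MIR641. The MIR641 gene was listed at 0 in all 3 ASO3 libraries and held 2.49, 7.02 and 6.23 TPM in control libraries. It lies inside AKT2, which itself fell to 133, 135 and 154 TPM with ASO3, against 226, 190 and 200 TPM with control (-0.54 ± 0.11, adjusted p = 0.0048; 0.069 in the unpaired 6-library fit). RNA-seq of this kind reads no mature microRNA, and reads of the host gene and of MIR641 cannot be told apart.

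The genes that rose furthest, chosen in the same way, were mostly low in control cells. GPR35, an orphan G protein-coupled receptor, held 6.73, 5.86 and 5.47 TPM with ASO3, against 1.15, 0.826 and 0.516 TPM with control (log2 change 2.32 ± 0.23, adjusted p = 2.22e-05). CAPN10, which overlaps GPR35 on the same strand, changed by -0.16 (adjusted p = 0.648). SNCG, gamma-synuclein, held 74.4, 45.1 and 41.5 TPM with ASO3, against 16.7, 9.48 and 10.2 TPM with control (2.10, adjusted p = 0.000149). The number 3 library was the highest of each group for SNCG. Of the 12 largest rises chosen in this way, AL355312.3 (2.63 ± 0.47), AC018816.1 (2.20) and AC006460.1 (2.07) are antisense genes, AC023232.1 (2.26) is a processed pseudogene and ABHD11-AS1 (2.09) lies against ABHD11. AL355312.3 held 14.8, 11.7 and 10.1 TPM with ASO3, against 3.2, 0.478 and 1.83 TPM with control. No source used here states whether counting used strand, so their reads and those of the genes on the other strand cannot be told apart. Those partners did not rise with them: LRP11, opposite AL355312.3, changed by -0.19 (adjusted p = 0.583), NAB1, opposite AC006460.1, by -0.15 (adjusted p = 0.804), and ITPR1, the inositol trisphosphate receptor opposite AC018816.1, fell by 0.79 (adjusted p = 0.0263; 0.088 in the unpaired 6-library fit). LETM2, a mitochondrial membrane protein gene, rose by 2.11, while FGFR1, which it overlaps on the other strand, changed by -0.36 (adjusted p = 0.108).

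**Figure D1:**
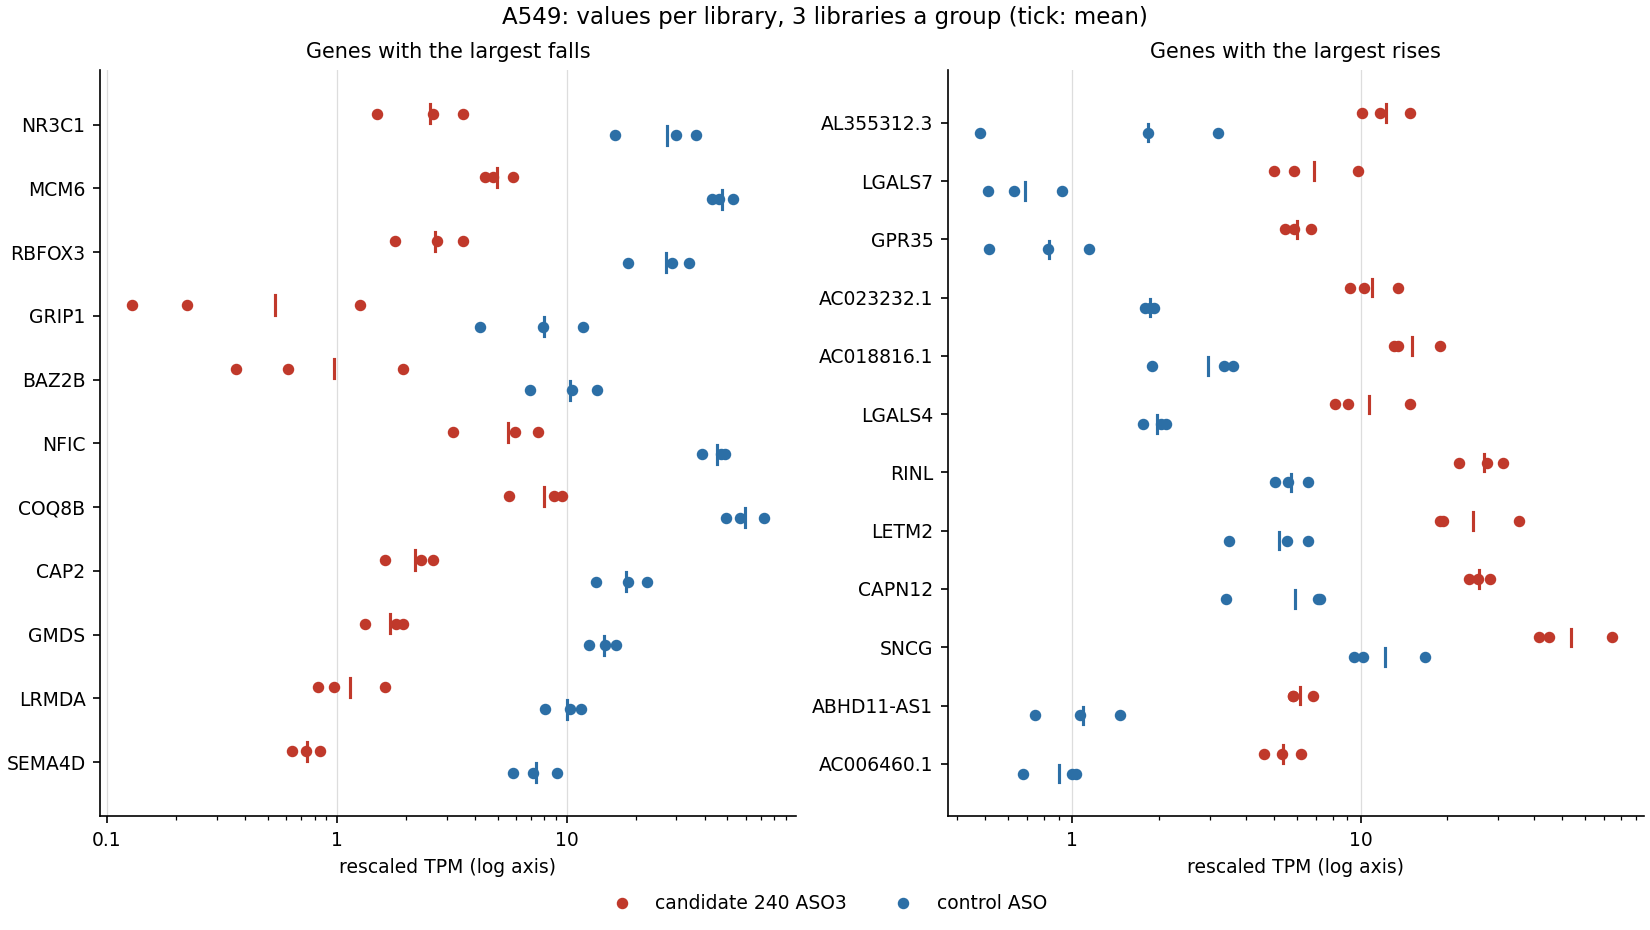
TPM per library on a log axis for the genes with the largest falls (left) and rises (right) in A549 cells, 3 ASO3 and 3 control libraries each, with a tick at the mean of each group and MIR641 left out because it is listed at 0. Only genes whose groups did not overlap were eligible, so the ASO3 points lie on one side of the control points, for example 1.49 to 3.52 TPM against 16.1 to 36.4 TPM for NR3C1.

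A group of 5 raised genes lies in 1 short stretch of chromosome 19, at chr19:38730187-38878275 (148089 bp, the authors' hg38 annotation), and all 5 are read from the minus strand. CAPN12, a calpain protease, held 23.8, 25.6 and 28.1 TPM with ASO3, against 3.42, 7.09 and 7.21 TPM with control (log2 change 2.10 ± 0.22, adjusted p = 3.43e-05). LGALS7, a galectin of stratified epithelium, held 9.78, 5.87 and 5.02 TPM with ASO3, against 0.924, 0.512 and 0.630 TPM with control (2.60 ± 0.41, adjusted p = 0.000815), though its near-identical copy LGALS7B (1.55, adjusted p = 0.0572) makes the split between the copies uncertain. LGALS4, a galectin of intestinal epithelium, held 8.13, 9.01 and 14.8 TPM with ASO3, against 2.04, 1.77 and 2.11 TPM with control (2.13 ± 0.23, adjusted p = 4.62e-05). RINL, a relative of the Ras and Rab interactors, and ECH1, a peroxisomal and mitochondrial enzyme of fatty acid oxidation, follow in the same stretch. RINL held 22.0, 31.1 and 27.4 TPM with ASO3, against 5.03, 5.59 and 6.57 TPM with control (2.13 ± 0.20, adjusted p = 1.61e-05). ECH1 was by far the most abundant, at 1090, 867 and 965 TPM with ASO3, against 583, 513 and 502 TPM with control (0.87 ± 0.11, adjusted p = 0.000149). The stretch has 8 tested genes, and the other members were AC008982.2 (0.84, adjusted p = 0.0723) and HNRNPL (-0.26, adjusted p = 0.0582), both also on the minus strand, beside LGALS7B. Its ends were set at CAPN12 and RINL, both among the largest rises. The 5 raised of 8, beside 6.0% of all genes tested, therefore follow in part from the choice of ends, and clustering was not tested. LGALS7 was also under 1 TPM in every control library, and the level filter counted the ASO3 libraries too. ACTN4, which overlaps CAPN12 from the plus strand (-0.32, adjusted p = 0.079), and the flanking SIRT2 (0.32, adjusted p = 0.0694) were not called. With strand handling not stated, reads where ACTN4 and CAPN12 overlap cannot be told apart.

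Neighbouring genes on the same strand were followed across all genes. Of the genes that rose by over 1 on the log2 scale and had a tested same-strand neighbour ending within 10000 bp upstream, 11 of 45 (24.4%) had that neighbour called higher too. The share was 29 of 189 (15.3%) for all raised genes, 6 of 123 (4.88%) for lowered genes and 164 of 2375 (6.91%) for all genes tested with such a neighbour. That neighbour was instead called lower for 12 of 123 lowered genes (9.76%), 12 of 189 raised genes (6.35%) and 148 of 2375 genes tested (6.23%). Lowered genes thus also had a same-direction share above that of all genes, by less, and no share was tested. Pairs with both genes raised, downstream gene first, were APOC1 with APOE (4853 bp apart), FASN with CCDC57 (3165 bp), KRT15 with KRT19 (1087 bp) and UNC13D with WBP2 (1146 bp), beside LGALS4 with ECH1 (2476 bp) and CAPN12 with LGALS7 (1066 bp). The downstream gene had the larger log2 estimate in KRT15 (1.90) beside KRT19 (0.76), UNC13D (1.92) beside WBP2 (0.55) and FASN (1.05) beside CCDC57 (0.84), and the smaller one in APOC1 (1.2) beside APOE (1.5).

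The lowered genes were long. The median genomic span, intron and exon together, was 68363 bp for the 1152 lowered genes and 149588 bp for those that fell by over 1 on the log2 scale, against 16154 bp for the 884 raised genes and 28011 bp for all genes tested. Spans over 100000 bp made up 40.4% of lowered genes, 4.45% of raised genes and 17% of all. Of the 421 genes spanning over 300000 bp, 39.9% fell and 1.43% rose, with a median change of -0.56. Of the 3658 genes spanning up to 10000 bp, 3.36% fell and 7.79% rose, with a median change of 0.07. Without ASO3 replicate 3 the share that fell was 35.2% in the longest class and 4.92% in the shortest, and the medians were -0.47 and 0.01. The named falls follow this: LRMDA spans 1128545 bp, GRIP1 721732 bp, GMDS 621800 bp, RBFOX3 426804 bp and BAZ2B 297591 bp, whereas MCM6 (36818 bp) and COQ8B (34271 bp) are near the median of all genes. The median change of the longest class was 0.07 for ASO1 over control and -0.39 for ASO3 over control in NCI-H460.

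**Figure D2:**
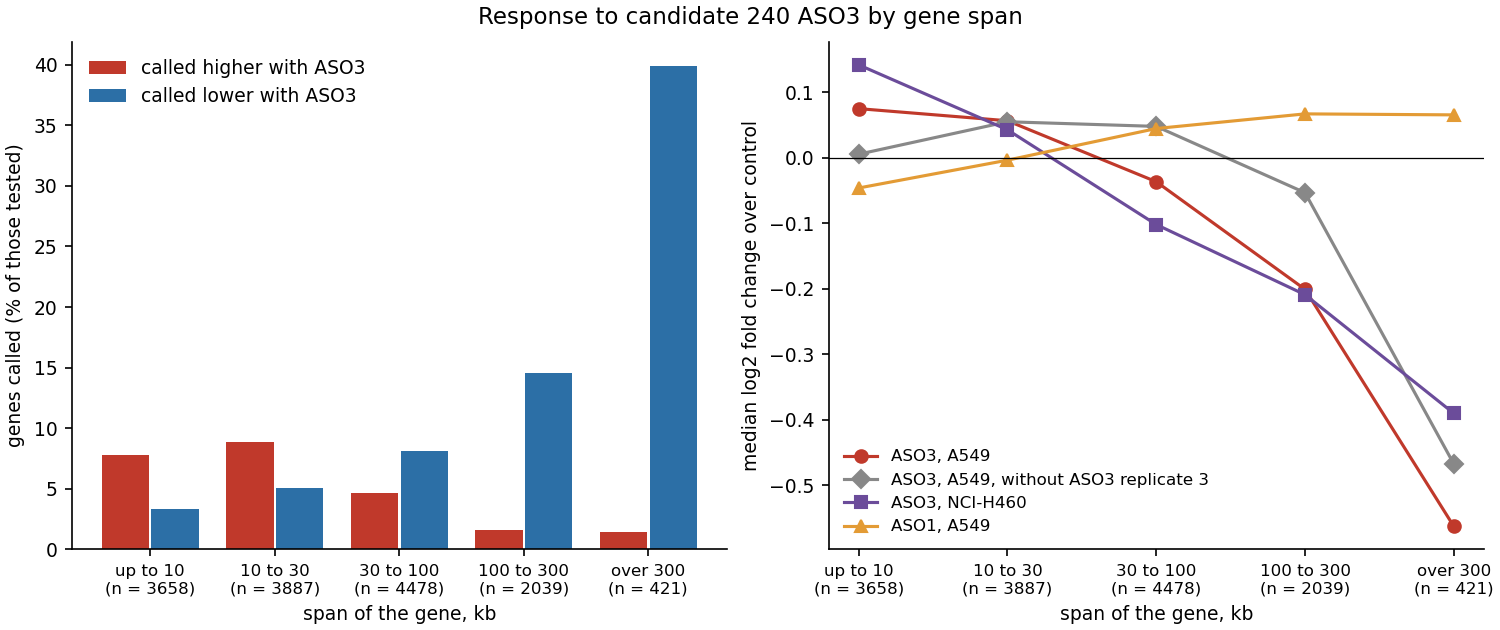
Share of genes called higher and lower with ASO3 in A549 cells, in percent, by genomic span of the gene in base pairs, with the median log2 change over control of each span class beside it for A549 ASO3 with and without ASO3 replicate 3, NCI-H460 ASO3 and A549 ASO1. The share called lower is 3.36% in genes up to 10000 bp and 39.9% in genes over 300000 bp.

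Genes of mitosis were lower with ASO3. Of 67 tested members of the G2/M and mitosis list, 16 fell (23.9%, beside 7.82% of all genes) and none rose, and the median change was -0.35. None of the 67 had a positive estimate. CENPA, the centromeric histone, held 30.8, 25.3 and 29.2 TPM with ASO3, against 53.5, 47.5 and 48.8 TPM with control (log2 change -0.81 ± 0.09, adjusted p = 7.22e-05). KIF4A, a chromosome-bound kinesin, held 15.2, 14.5 and 15.1 TPM with ASO3, against 19.5, 23.7 and 23.6 TPM with control (-0.56 ± 0.09, adjusted p = 0.00124). AURKA, a kinase of the spindle poles, held 66.6, 59.4 and 62.2 TPM with ASO3, against 82.2, 90.2 and 88.6 TPM with control (-0.47 ± 0.08, adjusted p = 0.00181). In these genes, chosen for their small p, every ASO3 library lay below every control library, which follows in part from that choice. The proliferation marker MKI67 held 21.5, 25.8 and 24.6 TPM with ASO3, against 33.2, 39.9 and 34.4 TPM with control (-0.57 ± 0.11, adjusted p = 0.00304), and CDC25B, a phosphatase that activates the mitotic kinase CDK1, fell by 0.47. CDK1 itself fell by 0.44 and CCNB1, its cyclin, by 0.53, a call lost without control replicate 4. The list had 39 members lower with the replicate block, 19 without ASO3 replicate 3, 8 without ASO3 replicate 4, 5 without control replicate 4 and 12 to 22 without each other library, and 23 in the paired and 1 in the unpaired 6-library fit.

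Mitotic genes are known to share promoter elements, the CCAAT box bound by NF-Y and the cell cycle homology region, and promoters of 4 lowered members are printed to show where these letters lie. Each is 300 bases from RefSeq on GRCh38.p14, 250 before to 50 after the annotated start, 5′ to 3′ on the gene's strand, with CCAAT or its reverse complement ATTGG and TTTGAA or its reverse complement TTCAAA in capitals. CENPA is at chr2:26785806-26786105 (plus strand), KIF4A at chrX:70289854-70290153 (plus), MKI67 at chr10:128126374-128126673 (minus) and CDC25B at chr20:3786701-3787000 (plus).
CENPA: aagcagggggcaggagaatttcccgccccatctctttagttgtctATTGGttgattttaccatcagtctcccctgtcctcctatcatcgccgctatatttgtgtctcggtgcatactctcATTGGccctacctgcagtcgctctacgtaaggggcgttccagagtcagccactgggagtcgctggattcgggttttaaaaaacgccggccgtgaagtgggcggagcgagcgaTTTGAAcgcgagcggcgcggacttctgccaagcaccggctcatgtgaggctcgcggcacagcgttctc
KIF4A: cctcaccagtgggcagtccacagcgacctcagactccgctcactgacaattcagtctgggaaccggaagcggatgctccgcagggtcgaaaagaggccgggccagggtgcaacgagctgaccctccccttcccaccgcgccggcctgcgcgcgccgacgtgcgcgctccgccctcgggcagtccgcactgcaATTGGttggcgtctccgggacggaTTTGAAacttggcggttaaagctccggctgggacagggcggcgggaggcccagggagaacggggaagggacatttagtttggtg
MKI67: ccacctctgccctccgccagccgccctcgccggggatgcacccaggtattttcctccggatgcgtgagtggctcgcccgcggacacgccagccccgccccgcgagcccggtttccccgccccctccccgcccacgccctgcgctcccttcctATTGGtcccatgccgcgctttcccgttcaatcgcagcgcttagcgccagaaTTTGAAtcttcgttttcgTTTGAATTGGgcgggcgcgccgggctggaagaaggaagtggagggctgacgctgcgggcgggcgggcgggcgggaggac
CDC25B: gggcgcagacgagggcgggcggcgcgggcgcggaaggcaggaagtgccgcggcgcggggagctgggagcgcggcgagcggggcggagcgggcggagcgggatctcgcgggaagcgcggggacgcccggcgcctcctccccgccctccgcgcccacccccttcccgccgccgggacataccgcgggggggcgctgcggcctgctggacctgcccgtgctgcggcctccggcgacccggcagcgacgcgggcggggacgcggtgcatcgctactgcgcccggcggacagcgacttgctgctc

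CENPA has ATTGG starting at -205 and -130 and TTTGAA at -18, counted back from the annotated start, KIF4A has ATTGG at -58 and TTTGAA at -34, and MKI67 has ATTGG at -98 and -24 and TTTGAA at -47 and -29, the last of each overlapping in MKI67. CDC25B has neither in this window. Searched on both strands, CCAAT was in 42 of 56 G2/M list promoters that the RefSeq table holds (75%) and in 9 of the 12 of lowered members, beside 35.7% of all 27305 promoters and 36.5% of the 10351 of tested genes. TTTGAA was in 41 of the 56 (73.2%) and 10 of the 12, beside 15.4% of all promoters and 9.19% of those of tested genes. Both occurred in 33 of the 56 (58.9%) and 8 of the 12, beside 6.08% and 3.93%. The shares in the lowered members were close to those in the whole list.

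DNA replication genes fell to unequal extents. Of 75 tested members of the G1/S and DNA replication list, 19 fell (25.3%, beside 7.82% of all genes), none rose, and the median change was -0.28. MCM6, a subunit of the replicative helicase, held 5.81, 4.40 and 4.78 TPM with ASO3, against 45.9, 52.8 and 43.0 TPM with control (log2 change -3.12 ± 0.11, adjusted p = 2.61e-09). The other subunits moved far less: MCM2 fell by 0.45 and MCM3 by 0.53, while MCM4 (-0.37, adjusted p = 0.0862), MCM5 (-0.61, adjusted p = 0.0504) and MCM7 (-0.27, adjusted p = 0.31) were not called. POLA1, the catalytic subunit of DNA polymerase alpha, held 2.79, 3.13 and 3.42 TPM with ASO3, against 10.7, 13.0 and 13.7 TPM with control (-1.84 ± 0.12, adjusted p = 6.65e-07). GINS4, a subunit of the GINS complex that joins the helicase, held 23.3, 19.4 and 16.6 TPM with ASO3, against 43.0, 41.2 and 43.5 TPM with control (-1.10 ± 0.14, adjusted p = 0.000111), and its partner GINS1 fell by 0.61. E2F1, the transcription factor of the G1/S genes, fell by 0.57 (adjusted p = 0.0332). PCNA, the sliding clamp (0.04, adjusted p = 0.894), and RRM2, a ribonucleotide reductase subunit (-0.25, adjusted p = 0.331), were not called. The list had 35 members lower with the replicate block, 21 without ASO3 replicate 3, 11 without ASO3 replicate 4, ASO3 replicate 5 or control replicate 4, and 23 in the paired and 3 in the unpaired 6-library fit.

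In the DNA repair list outside p53 control, 8 of 47 tested members fell (17%, beside 7.82% of all genes) and none rose, with a median of -0.27. XRCC4, a partner of DNA ligase IV in end joining, held 1.41, 1.39 and 1.14 TPM with ASO3, against 10.4, 9.49 and 10.7 TPM with control (log2 change -2.56 ± 0.12, adjusted p = 3.09e-08). FANCD2 of the Fanconi anaemia pathway fell by 0.77 (SE 0.14, adjusted p = 0.00242), and FANCC of the same pathway by 0.61. The count was 17 with the replicate block, 10 without ASO3 replicate 3, 15 without control replicate 3, and 11 in the paired and 3 in the unpaired 6-library fit.

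Targets of p53 rose. Of 46 tested, 11 were higher (23.9%, beside 6.0% of all genes) and none lower, with a median change of 0.31. TP53I3, a p53-induced oxidoreductase, held 360, 259 and 262 TPM with ASO3, against 157, 109 and 109 TPM with control (log2 change 1.23 ± 0.16, adjusted p = 0.000173). BBC3, the pro-apoptotic PUMA, held 31.8, 31.8 and 31.5 TPM with ASO3, against 14.9, 13.2 and 20.7 TPM with control (0.96 ± 0.15, adjusted p = 0.00074). CDKN1A, the cell cycle inhibitor p21, held 247, 222 and 211 TPM with ASO3, against 164, 132 and 136 TPM with control (0.66 ± 0.10, adjusted p = 0.000853). The groups did not overlap for any of these. MDM2, the ligase that degrades p53, held 43.5, 42.3 and 43.7 TPM with ASO3, against 16.3, 29.1 and 24.2 TPM with control (0.92 ± 0.22, adjusted p = 0.0123; 0.059 in the unpaired 6-library fit). TRIAP1, an apoptosis inhibitor, rose by 0.54, and FDXR, ferredoxin reductase, by 0.88. GDF15 (0.30, adjusted p = 0.338) and FAS (0.34, adjusted p = 0.0931) were not called. The list had 19 members higher and 1 lower with the replicate block, 18 higher and 1 lower without ASO3 replicate 3, and 17 higher in the paired and 3 in the unpaired 6-library fit. Of the 4 cyclin-dependent kinase inhibitors listed apart from p53 targets, none was called.

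Enzymes of sterol synthesis rose, while regulators of the pathway were not called in the full set. Of 39 tested members of the sterol and fatty acid list, 14 rose (35.9%, beside 6.0% of all genes) and 1 fell (2.56%, beside 7.82%), with a median of 0.39. All 11 raised sterol members were among the 20 tested enzymes of the sterol pathway (median 0.52), and 3 of 10 fatty acid enzymes rose and 1 fell. None of the 9 regulators and uptake genes was called. Of these 9, 2 rose and 1 fell with the replicate block, and 1 rose without ASO3 replicate 3. TM7SF2, a sterol reductase, held 59.6, 49.7 and 54.9 TPM with ASO3, against 24.3, 24.2 and 20.7 TPM with control (log2 change 1.23 ± 0.13, adjusted p = 3.36e-05). MVD, mevalonate diphosphate decarboxylase, held 145, 108 and 102 TPM with ASO3, against 65.3, 52.9 and 45.6 TPM with control (1.11 ± 0.15, adjusted p = 0.000233). IDI1, the isomerase after it, held 104, 110 and 111 TPM with ASO3, against 57.2, 64.7 and 54.7 TPM with control (0.88 ± 0.13, adjusted p = 0.000595). No ASO3 library of these genes came down to the control range, and MVK, mevalonate kinase, rose by 0.70 (adjusted p = 0.000749). FASN, fatty acid synthase, held 531, 470 and 388 TPM with ASO3, against 295, 218 and 170 TPM with control (1.05 ± 0.18, adjusted p = 0.00142), and the elongase ELOVL5 fell by 0.60 (adjusted p = 0.00384). HMGCS1, a synthase of the early pathway (0.81, adjusted p = 0.0673), missed the threshold in the full set and passed it without ASO3 replicate 3 (1.13, adjusted p = 0.0077). INSIG1, a regulator of the pathway (0.32, adjusted p = 0.159), and SREBF2, the pathway's transcription factor (0.01), were not called. The list had 22 members higher and 2 lower with the replicate block, 17 and 2 without ASO3 replicate 3, 18 and 1 in the paired and 6 and 0 in the unpaired 6-library fit. In the sterol export list, APOE, the lipid carrier, held 162, 87.5 and 82.8 TPM with ASO3, against 52.9, 31.2 and 30.6 TPM with control (1.5 ± 0.31, adjusted p = 0.00488). NR1H3, the liver X receptor alpha, rose by 0.71, a call lost in 4 of the 6 fits that left out 1 library. The transporter ABCA7 fell by 1.14 (adjusted p = 0.00292). In that list 2 of 9 members thus rose (22.2%, beside 6.0% of all genes) and 1 fell (11.1%, beside 7.82%).

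Interferon-stimulated genes rose from low levels. Of 24 tested, 9 were higher (37.5%, beside 6.0% of all genes) and none lower, with a median of 0.51. The list has 29 members. ISG15, a ubiquitin-like modifier, held 91.2, 46.1 and 40.5 TPM with ASO3, against 16.9, 13.5 and 10.6 TPM with control (log2 change 2.0 ± 0.30, adjusted p = 0.000559). OASL, a relative of the oligoadenylate synthetases, held 4.37, 3.37 and 3.34 TPM with ASO3, against 0.392, 0.559 and 0.568 TPM with control (2.06 ± 0.21, adjusted p = 3.24e-05). Both genes were apart between the groups in every library. OASL was under 1 TPM in every control library, and the level filter counted the ASO3 libraries too. The count of raised members may therefore include genes that passed the filter through their ASO3 level. IFIT2 (1.18 ± 0.19, adjusted p = 0.000978) and IFIT3 (0.95, adjusted p = 0.000918), which bind foreign RNA, rose too, as did the transcription factor IRF7 (1.15 ± 0.19, adjusted p = 0.00125). MX1, an antiviral GTPase, was not called (0.25, adjusted p = 0.739). The count was 12 with the replicate block, 9 without ASO3 replicate 3, 6 without control replicate 5, and 10 in the paired and 6 in the unpaired 6-library fit. Of 10 tested sensors of nucleic acids and their adaptors, 3 rose (30%, beside 6.0% of all genes) and 1 fell (10%, beside 7.82%). STING1, the adaptor of cytosolic DNA sensing, held 5.49, 5.78 and 5.77 TPM with ASO3, against 1.91, 2.48 and 2.29 TPM with control (1.19 ± 0.21, adjusted p = 0.00152). DDX58, the RNA sensor RIG-I, rose by 0.99 (adjusted p = 0.00345; 0.056 in the unpaired 6-library fit) and MYD88, the adaptor of Toll-like receptors, by 0.59. MAVS, the adaptor of DDX58, fell by 0.58, a call lost without ASO3 replicate 3, control replicate 4 or control replicate 5. In the paired 6-library fit 3 of these sensors rose and 1 fell, and in the unpaired one 1 rose.

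Genes of the unfolded protein response, the chaperones and degradation factors of the endoplasmic reticulum, fell. Of 24 tested, 12 were lower (50%, beside 7.82% of all genes) and none higher, with a median of -0.47. HSPA5, the chaperone BiP, held 214, 167 and 186 TPM with ASO3, against 253, 280 and 244 TPM with control (log2 change -0.46 ± 0.09, adjusted p = 0.00483). PDIA4, a disulfide isomerase, held 142, 117 and 128 TPM with ASO3, against 214, 227 and 186 TPM with control (-0.69 ± 0.10, adjusted p = 0.00044). Both genes were lower in every ASO3 library than in any control library. PDIA6 fell by 0.49 (adjusted p = 0.00131), P4HB, a further disulfide isomerase, by 0.73 (SE 0.13), SYVN1, the ligase of protein degradation there, by 0.63 (SE 0.10), the lectin chaperone CALR by 0.65 and the transcription factor XBP1 by 0.52. The count was 15 with the replicate block, 11 without ASO3 replicate 3, 9 to 13 when each library was left out in turn, and 12 in the paired and 2 in the unpaired 6-library fit. Of 21 heat shock and chaperone genes, 16 of the cytosol and 5 of mitochondria, none was called (median 0.10). Control replicate 5 was low for this list. Relative to the control mean, the list's median was 0.20, 0.09 and -0.22 in control replicates 3, 4 and 5. It was 0.22, -0.03 and 0.05 in the same-numbered ASO3 libraries. From 0 to 2 members were higher when each library was left out in turn.

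For the integrated stress response, the pathway that runs through ATF4, control replicate 5 was higher than the other control libraries. Of 25 tested ATF4 targets, 22 had their highest control level in replicate 5, and 20 their highest level of all 6 libraries. DDIT3, the stress factor CHOP, held 26.2, 21.5 and 19.8 TPM with ASO3, against 13.1, 8.66 and 65.1 TPM with control (log2 change 0.18, adjusted p = 0.873). ASNS, asparagine synthetase, held 106, 89.8 and 97.3 TPM with ASO3, against 37.0, 42.3 and 104 TPM with control (0.83, adjusted p = 0.0737). For DDIT3 and ASNS the ASO3 libraries lay above control replicates 3 and 4, while control replicate 5 lay above them for DDIT3 and among them for ASNS. In the full set none of the 25 rose (beside 6.0% of all genes) and 2 fell, close to the share of all genes (7.82%). The 2 were SLC7A5 (-0.85 ± 0.14, adjusted p = 0.00123) and SLC3A2 (-0.61), both subunits of one amino acid exchanger. The call of SLC3A2 was lost in 4 of the 6 fits that left out 1 library. Without control replicate 5, 9 members were higher and the list's median was 0.25.

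**Figure D3:**
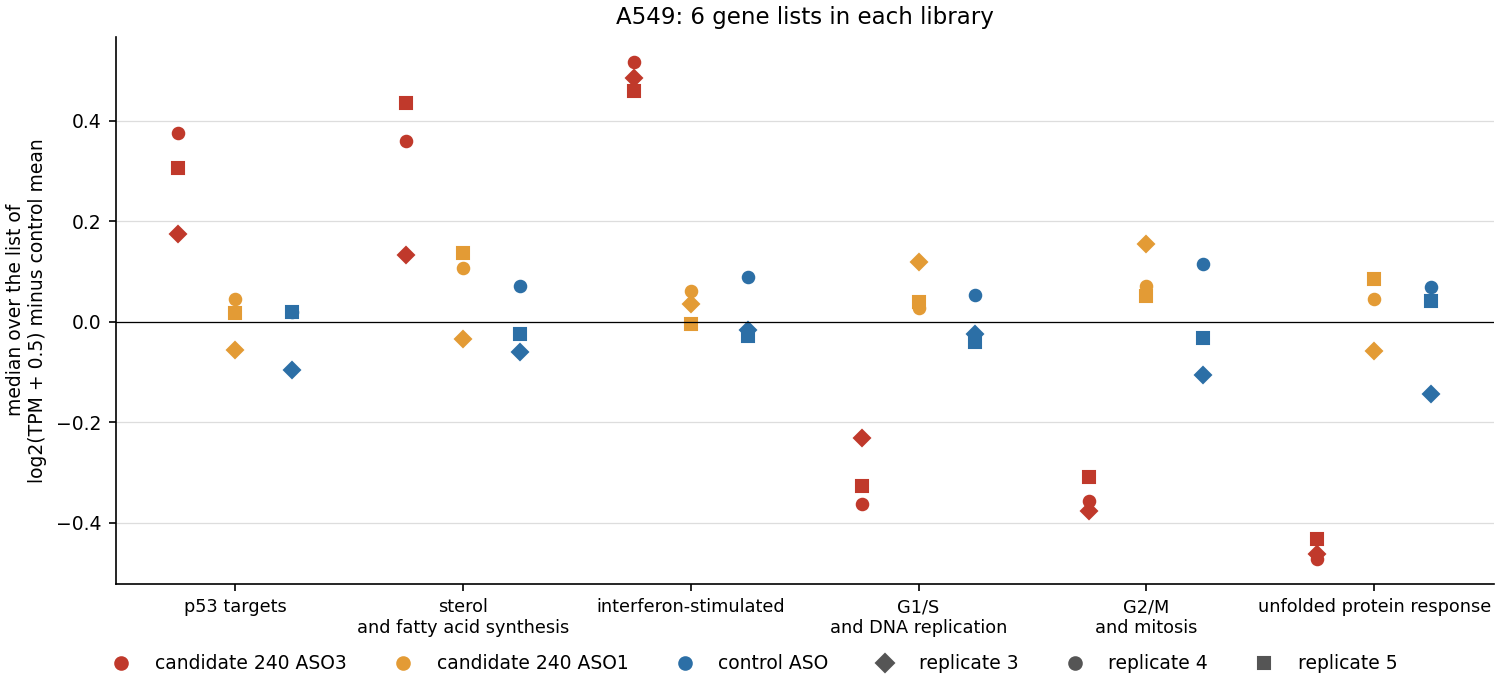
Median over each of 6 gene lists of log2(TPM + 0.5) minus the gene's mean in the control libraries, 1 point per A549 library, for ASO3, ASO1 and control, with the replicate number as the shape. The p53, sterol and interferon lists lie above the control libraries in all 3 ASO3 libraries, and the G2/M, G1/S and unfolded protein response lists lie below them.

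Lysosomal genes fell within a wider list of autophagy. Of 30 tested members of the autophagy and lysosome list, 9 fell (30%, beside 7.82% of all genes) and 1 rose (3.33%, beside 6.0%). Among those that fell were 7 of the 17 lysosomal members (41.2%), whose median was -0.40. PSAP, the precursor of the saposins, held 616, 496 and 556 TPM with ASO3, against 986, 892 and 879 TPM with control (log2 change -0.73 ± 0.10, adjusted p = 0.000311), with no overlap of the groups. HEXA, a hexosaminidase subunit, fell by 0.58 (adjusted p = 0.00297), the membrane protein LAMP1 by 0.55 and ATG7, the enzyme that starts the conjugation of autophagy proteins, by 0.98. CD68, a lysosomal membrane protein used as a macrophage marker, went the other way. It held 77.4, 65.4 and 75.3 TPM with ASO3, against 23.9, 24.5 and 21.6 TPM with control (1.62 ± 0.11, adjusted p = 1.03e-06), while 7 of the 9 leukocyte markers were under 1 TPM in all 6 libraries and CD14 held 15.7 to 22.8 TPM with ASO3, against 14.0 to 16.7 TPM with control. Of the lysosomal members, 10 fell with the replicate block and 9 without ASO3 replicate 3; of all 30, 11 fell in the paired and 2 in the unpaired 6-library fit, and none rose.

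Matrix and adhesion genes changed in both directions. Of 34 tested, 11 fell (32.4%, beside 7.82% of all genes) and 3 rose (8.82%, beside 6.0%), with a median of -0.32. ITGB5, an integrin beta chain that pairs with integrin alpha V, held 115, 84.0 and 92.2 TPM with ASO3, against 424, 403 and 452 TPM with control (log2 change -2.14 ± 0.13, adjusted p = 3.43e-07). LAMB3, a chain of laminin 332, held 35.4, 44.9 and 43.0 TPM with ASO3, against 10.1, 10.8 and 12 TPM with control (1.86 ± 0.16, adjusted p = 6.22e-06). LAMA3, another chain of the same laminin, held 8.33, 6.49 and 6.93 TPM with ASO3, against 18.2, 16.9 and 17.8 TPM with control (-1.23 ± 0.12, adjusted p = 2.18e-05). Chains of 1 trimer thus moved in opposite directions, each without overlap of the groups. The basement membrane genes COL4A6 (-1.15 ± 0.13, adjusted p = 5.71e-05) and AGRN (-0.82) fell. The integrins ITGB4 (0.79) and ITGA5 (0.45) rose, each a call lost in 5 of the 6 fits that left out 1 library. The list had 6 members higher and 15 lower with the replicate block, 1 and 9 without ASO3 replicate 3, 1 and 7 without control replicate 4, 2 and 6 without control replicate 5, 4 and 11 in the paired and 2 and 5 in the unpaired 6-library fit. Of the epithelial and mesenchymal list (19 tested, 2 higher and 3 lower), CLDN4, a tight junction claudin, held 11.4, 12 and 10.8 TPM with ASO3, against 3.35, 3.10 and 2.42 TPM with control (1.79 ± 0.16, adjusted p = 6.37e-06). The keratin KRT19 rose by 0.76 and KRT18 fell by 0.59. Of the galectins and stratified epithelium list, 11 of 21 members were tested and 3 rose (27.3%, beside 6.0% of all genes). They were LGALS4, LGALS7 and KRT15, a basal keratin (1.90 ± 0.23), and were also called in the unpaired 6-library fit. LGALS7 was under 1 TPM in every control library, and the level filter counted the ASO3 libraries too.

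Among growth factors, receptors and RAS proteins, 3 of 32 tested rose (9.38%) and 4 fell (12.5%), beside 6.0% and 7.82% of all genes. RALA, a small GTPase downstream of RAS, held 3.43, 1.79 and 3.01 TPM with ASO3, against 14.3, 16.4 and 19.1 TPM with control (log2 change -2.43 ± 0.18, adjusted p = 1.26e-06). PGF, placental growth factor, held 6.53, 5.61 and 4.95 TPM with ASO3, against 1.86, 1.22 and 1.43 TPM with control (1.63 ± 0.18, adjusted p = 5.55e-05). IGF2, an insulin-like growth factor, held 4.93, 5.19 and 6.01 TPM with ASO3, against 0.538, 1.39 and 1.36 TPM with control (1.93 ± 0.29, adjusted p = 0.000618). For these genes no library crossed into the other group's range. AREG, amphiregulin, a ligand of the EGF receptor, held 50.4, 35.3 and 38.9 TPM with ASO3, against 66.7, 65.7 and 79.2 TPM with control (-0.77 ± 0.12, adjusted p = 0.000846). EGFR, its receptor, fell by 1.2 (SE 0.29, adjusted p = 0.0126), a call lost without control replicate 4 or 5. TGFA, a further ligand, fell by 0.68, a call lost in 4 of the 6 fits that left out 1 library. RALB, the relative of RALA, rose by 0.35, a call lost without ASO3 replicate 5 or control replicate 5. The lowered members numbered 2 without control replicate 4 or 5, and 2 of the list rose and 7 fell in the paired, and 2 rose and 1 fell in the unpaired, 6-library fit. In the TGF-beta list 5 of 29 tested fell (17.2%, beside 7.82% of all genes) and none rose. Among those that fell were the receptor ACVR1 (-0.86, adjusted p = 0.00129) and the inhibitors of differentiation ID1 (-1.09 ± 0.20, adjusted p = 0.00223) and ID3 (-0.94 ± 0.17, adjusted p = 0.00195). Of this list 3 rose and 9 fell with the replicate block, and 1 rose and 6 fell without ASO3 replicate 3. In the paired 6-library fit 2 rose and 6 fell, and in the unpaired one 1 fell. Without control replicate 5, 3 fell and the list's median was 0.011, against -0.16 with all libraries. In the Hippo list 2 of 24 fell (8.33%, about the share of all genes), the kinase STK3 (-1.79 ± 0.22, adjusted p = 0.000125) and the transcription factor TEAD4 (-0.85 ± 0.14, adjusted p = 0.000918). The Hippo list's median was -0.02, and 0.15 without ASO3 replicate 3.

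The fall of NR3C1 was not matched by a common direction among the targets of the receptor. Of 28 tested members of the glucocorticoid list, 2 rose (7.14%) and 1 fell, the receptor itself, close to the share of all genes. The metallothionein MT1X rose by 0.99 (SE 0.18, adjusted p = 0.00228). ANGPTL4 rose by 1.23 (adjusted p = 0.0458), a call lost in 5 of the 6 fits that left out 1 library. FKBP5, a cochaperone of the receptor that it induces (-0.25, adjusted p = 0.431), and PER1 (0.49, adjusted p = 0.159) were not called. TSC22D3, the leucine zipper gene GILZ, held 32.2, 27.8 and 26.6 TPM with ASO3, against 18.8, 19 and 49.9 TPM with control, where replicate 5 was the highest of the 6 libraries (log2 change 0.13, and 0.59 without it). No source used here states whether the cells were exposed to a glucocorticoid.

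Of 29 tested NRF2 targets, 2 were higher (6.90%) and 4 lower (13.8%), beside 6.0% and 7.82% of all genes, and 2 were lower without ASO3 replicate 4 or control replicate 4. GPX2, a glutathione peroxidase, held 1573, 1559 and 1625 TPM with ASO3, against 1026, 1047 and 811 TPM with control (log2 change 0.73 ± 0.14, adjusted p = 0.00251). The exporter ABCC3 fell (-0.79, adjusted p = 0.00351), while NQO1 (-0.30, adjusted p = 0.117) and HMOX1 (-0.18) were not called. With the replicate block 3 rose and 10 fell, in the paired 6-library fit 1 rose and 6 fell, and in the unpaired one none was called. Of 31 glycolysis and hypoxia genes 4 rose and 4 fell (12.9% each, beside 6.0% and 7.82% of all genes). Their median was 0.02, and -0.12 without ASO3 replicate 3. ALDOC, the aldolase of brain, held 31.5, 21.9 and 20.9 TPM with ASO3, against 5.80, 5.70 and 5.96 TPM with control (1.98 ± 0.15, adjusted p = 1.91e-06), the hypoxia gene NDRG1 rose by 0.93 (adjusted p = 0.00231) and the glucose transporter SLC2A1 fell by 0.55 (adjusted p = 0.0126). Of 32 nuclear genes of oxidative phosphorylation 2 fell (6.25%), SDHD (-0.61, adjusted p = 0.000321) and SDHC (-0.46, adjusted p = 0.0048), both membrane subunits of succinate dehydrogenase. Of 15 mitochondrially encoded genes none was called.

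Among nuclear functions, the chromatin regulators had a median of -0.11, and 0.16 without ASO3 replicate 3. Of 23 tested, 3 fell (13%, beside 7.82% of all genes). They were SMYD3, a lysine methyltransferase (-1.72 ± 0.17, adjusted p = 1.81e-05), UHRF1, a partner of the maintenance DNA methyltransferase (-0.47, adjusted p = 0.00813), and EZH2 of Polycomb (-0.50), a call that single libraries ended. In the apoptosis list outside p53 control, 2 of 23 rose (8.70%, beside 6.0% of all genes) and 1 fell (4.35%), the caspase CASP2 (-0.84, adjusted p = 0.00462). In the vesicle traffic list 1 of 22 rose (4.55%) and 2 fell (9.09%), the retrieval receptor KDELR2 (-0.88 ± 0.10, adjusted p = 7.21e-05) and the tether USO1 (-1.05). Of 20 proteasome genes 1 fell (5%), NFE2L1, a transcription factor of the proteasome genes (-0.73). Of 11 RNase H and RNA decay genes 1 fell (9.09%), RNASEH2B (-0.44), a call that single libraries ended. No gene passed among 32 cytosolic ribosomal proteins (median 0.15, and -0.09 without ASO3 replicate 3), 22 ribosome biogenesis factors or 22 splicing factors. NF-kB targets (18 tested) and immediate early genes (27 tested) had 1 member higher and 1 lower each (5.56% and 3.70% per direction).

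**Figure D4:**
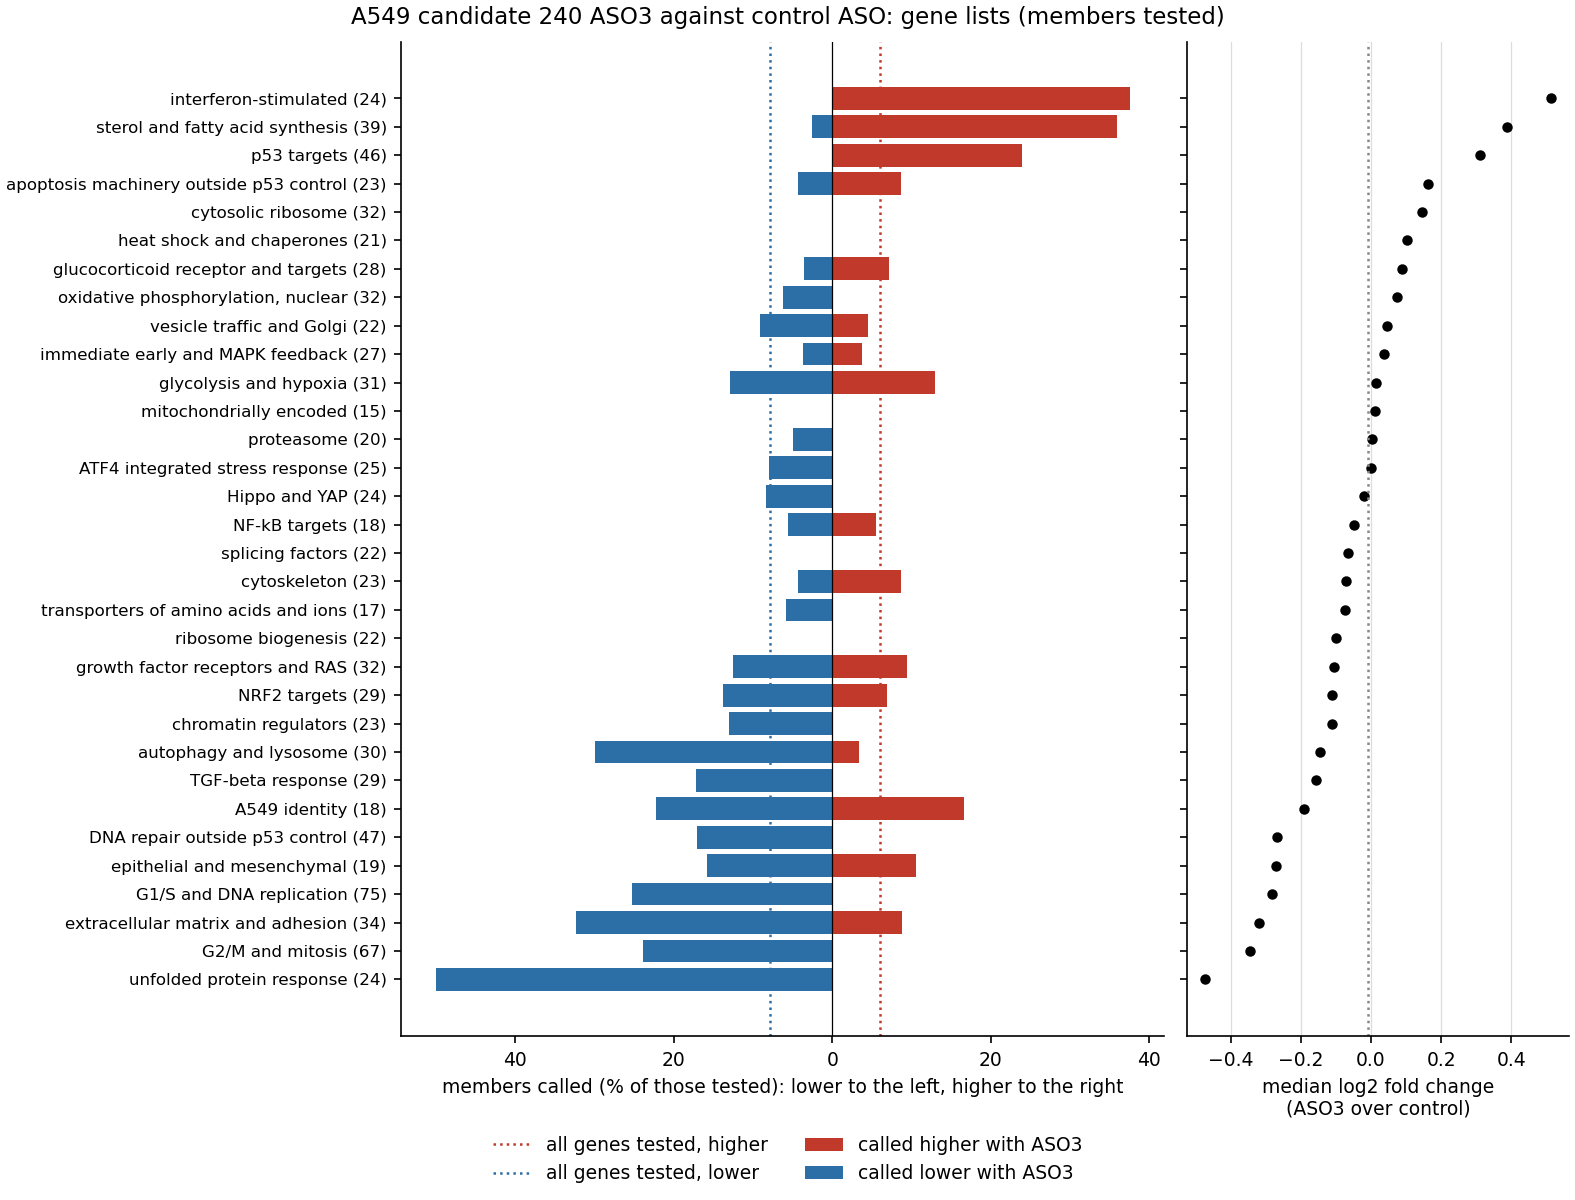
Share of tested members called higher (right) and lower (left) with ASO3 over control in A549 cells, in percent, for lists of at least 15 tested genes, beside the list's median log2 change; dotted lines give the same for all genes tested. The unfolded protein response list has the largest share of lower members, the interferon list 37.5% higher, and the cytosolic ribosome and splicing lists none.

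ASO1, the other oligonucleotide against candidate 240, shared the control libraries with ASO3 and called no gene over control (0%) by limma, with 267 genes at an unadjusted p under 0.05 and 0 genes at a q-value under 0.05 in the authors' deposited table. The same 3 libraries served for both, so the values are set side by side. NR3C1 changed by 0.14 with ASO1 against -3.18 with ASO3, MCM6 by 0.14 against -3.12, TP53I3 by -0.06 against 1.23 and CDKN1A by -0.01 against 0.66. Tested directly against ASO1, with no control library in the contrast, ASO3 called 2465 genes (16.7%; 1068 higher, 7.25%, and 1397 lower, 9.48%), 4411 with the replicate block (29.9%) and 1245 in the unpaired fit of the 6 ASO libraries. In that contrast 12 p53 targets and 11 interferon genes were higher and none lower, 13 sterol and fatty acid genes were higher and 2 lower, 30 G2/M genes, 25 G1/S genes and 13 unfolded protein response genes were lower and none higher, and 13 matrix genes were lower and 5 higher. The log2 difference was -3.32 for NR3C1 and -3.26 for MCM6, 2.16 for ISG15 and 1.29 for TP53I3. MDM2 was not called between the oligonucleotides (0.62, adjusted p = 0.073). AC015712.1 was lower with ASO3 than with ASO1 by the same contrast (-1.85, adjusted p = 0.0002).

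In NCI-H460 cells, which share no library with the A549 set, ASO3 called 780 of 13774 genes over control (5.66%; 365 higher, 2.65%, and 415 lower, 3.01%), with 2 libraries per group. Among 12760 genes tested in both lines, 680 had risen in A549, and 601 of these (88.4%) had a higher estimate in NCI-H460, beside 46.6% of all 12760. Of the 1022 that fell in A549, 914 (89.4%) had a lower estimate there, beside 53.4% of all. Called in both lines with the same sign were 133 raised and 234 lowered genes, 21.6% of the A549 calls and 51.8% of the NCI-H460 calls, and 4 were called with opposite signs. The correlation of the changes across genes was 0.515; genes are not independent replicates. The medians were smaller in NCI-H460, at 0.35 for the genes raised in A549 (0.66 in A549) and -0.34 for those lowered (-0.74 in A549). NR3C1 changed by -1.91, NFIC by -1.90, CAP2 by -2.25, RALA by -1.41 and RINL by 2.15 in NCI-H460. By list, 10 of 44 p53 targets rose and none fell (CDKN1A 0.96, adjusted p = 0.0016; TP53I3 1.01, adjusted p = 0.0028), and 8 of 25 interferon genes rose (ISG15 1.87, adjusted p = 0.005). The G2/M list had no call (median -0.10, against -0.35 in A549) and the sterol list 1 higher and 1 lower (median 0.05, against 0.39 in A549).

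The response of each gene was tested for a difference between the lines. It differed in 75 of 12760 genes (0.588%), 16 with the A549 change above (0.125%) and 59 with it below (0.462%), and in 358 with the replicate block (2.81%), while with only the compared groups 2 were called. MCM6 fell further in A549 (-3.12, against -2.19 in NCI-H460; adjusted p of the difference 0.0159), as did XRCC4 (-2.56, against -1.63; adjusted p = 0.0338) and ITGB5 (-2.14, against -1.32; adjusted p = 0.0437). GINS4 (-1.10, against 0.03; adjusted p = 0.0392) and AURKA (-0.47, against 0.07; adjusted p = 0.0392) fell in A549 and were not called in NCI-H460. AREG fell in A549 and was higher by 1.09 in NCI-H460, where it held 3.88 and 3.60 TPM with ASO3, against 1.59 and 1.39 TPM with control (adjusted p of the difference 9.43e-05). ID1, ID2 and ID3 were the TGF-beta list members with a difference. RINL rose alike by estimate (2.13, against 2.15; adjusted p = 0.99), which does not show equal responses. No G2/M, sterol or p53 list was tested as a list between the lines.

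**Figure D5:**
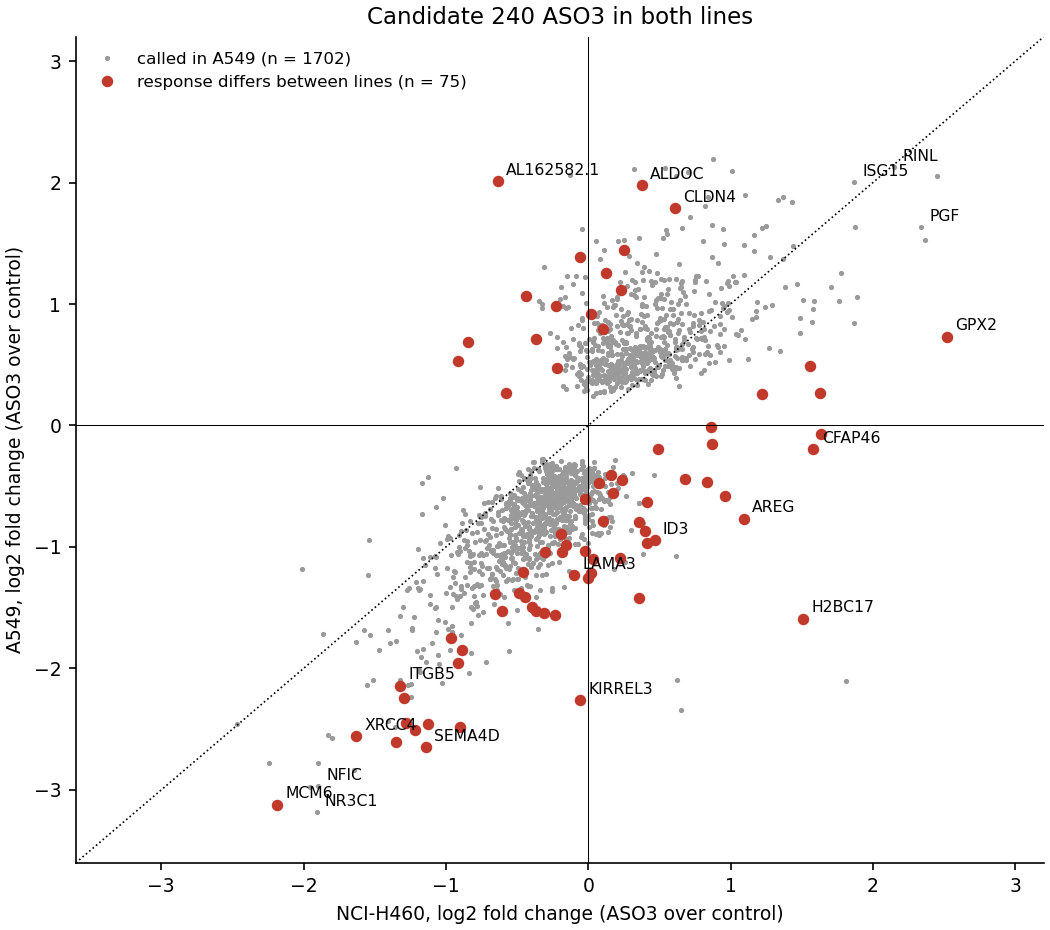
Log2 change with ASO3 over control in A549 cells on the vertical axis and in NCI-H460 cells on the horizontal axis, for genes called in A549 (grey) and the 75 genes whose change differed between the lines (red), with the line of equal change dotted. MCM6 lies at -3.12 in A549 and -2.19 in NCI-H460, and AREG at -0.77 in A549 and 1.09 in NCI-H460.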

How the data were processed

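Gene-level TPM of 25 libraries were used as deposited. Per the submitters' processing notes, kallisto, sleuth 0.30 and hg38 were used; strand handling and annotation release are given in no source used here. The deposited columns sum to 924350 to 1179224 rather than 1000000, so they are the authors' rescaled signal in TPM, and depth per library is unknown. Every column was mapped to a sample. Per the file headers, the authors' deposited comparison tables give a log2 fold change, a q-value and group means as signal. In the authors' deposited table for A549 ASO3, 2180 of 18717 genes had a q-value under 0.05 (1078 higher and 1102 lower).

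From these values log2(TPM + 0.5) was computed, genes whose mean over the 15 A549 libraries reached 1 TPM were kept (14740 of 59427 gene names), and limma 3.58.1 (R 4.3.3) was fitted to all 5 A549 groups with 10 residual degrees of freedom, two-sided, with Benjamini-Hochberg adjustment at 0.05. The filter mean held the ASO3 libraries, so a gene low with control could pass it through its ASO3 level. ASO3 was also tested against ASO1 in this fit, and against its NCI-H460 response in a fit of all libraries. The script was tested on simulated data. Alternatives were the replicate block, only the groups compared (the 6-library fit, unpaired or with the block), pseudocounts of 0.1 and 1 TPM, no filter, a filter of 5 TPM, median-of-ratios scaling, no variance trend, and each library left out in turn.

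The replicate numbers were taken to pair the libraries. Deviations of same-numbered ASO3 and control libraries from their group means correlated at 0.564, 0.283 and 0.304. Replicates 4 and 5 correlated about as much across numbers (0.263 and 0.277). These values set replicate 3 apart from the others but do not show that replicates 4 and 5 are paired by number. Named genes were the 12 largest rises and falls among called genes without group overlap and at least 5 TPM, up to 4 members per direction of each list by p, members that define a list, and the 5 largest line differences per direction. For list members named by p, separation of the groups follows in part from that choice. The comparison, its members and the lists were chosen with earlier results of these data known. Promoters came from the RefSeq table on GRCh38.p14. Some genes are not reported here.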

Additional observations from a re-analysis of the deposited data

Results flagged for a closer look

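These genes are given because their change with ASO3 over control differed between the lines by the interaction test in limma, among the genes named. Each value is the A549 change minus the NCI-H460 change on the log2 scale. With only the compared groups in the fit, 2 genes passed, against 75 in the fit of all groups.

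Above 0 were AL162582.1 (2.65, adjusted p = 0.0338; A549 2.01, NCI-H460 -0.64), ALDOC (1.6, adjusted p = 0.000715), NIBAN1 (1.53, adjusted p = 0.028; A549 0.69, NCI-H460 -0.84), PCED1B (1.5, adjusted p = 0.000715), ATP9B (1.45, adjusted p = 0.000715; A549 0.53, NCI-H460 -0.91) and CLDN4 (1.18, adjusted p = 0.0237). PCED1B held 171, 169 and 160 TPM with ASO3 in A549, against 70.3, 73.6 and 96.4 TPM with control, and 1.19 and 1.60 TPM with ASO3 in NCI-H460, against 2.31 and 1.81 TPM with control. CLDN4 was 41.1 and 47.0 TPM with ASO3 in NCI-H460, against 31.8 and 25.8 TPM with control, a higher level than in A549 under either oligonucleotide.

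Below 0 with opposite estimates in the lines were H2BC17 (-3.1), AREG (-1.86), ID3 (-1.41), ID1 (-1.31), CFAP46 (-1.78), GINS4 (-1.14) and AURKA (-0.54). GPX2 (-1.79, adjusted p = 0.000118) rose in both lines, by 0.73 in A549 and 2.52 in NCI-H460, but held 4.57 and 3.69 TPM with ASO3 in NCI-H460, against 0.256 and 0.351 TPM with control, far under its A549 level. H2BC17 was under 6 TPM in every library used, and its call in A549 was lost without ASO3 replicate 3 or 4 or control replicate 4 or 5.

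Below 0 with a fall in A549 and a smaller or near-zero estimate in NCI-H460 were KIRREL3 (-2.2), SEMA4D (-1.51), LAMA3 (-1.13), MCM6 (-0.93), XRCC4 (-0.93) and ITGB5 (-0.82). KIRREL3 held 1.35 and 0.553 TPM with ASO3 in NCI-H460, against 0.534 and 1.53 TPM with control, which is at the low end of what was tested.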

How the results depend on the processing

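With only the groups compared, calls were 652 for ASO3 over control (2036 in all groups), 1245 for ASO3 against ASO1 (2465) and 2 for the difference between lines (75). With the replicate block they were 3696, 4411 and 358. For ASO3 over control the block with only the groups compared gave 2436. In the fit of all groups the block ended no call and turned no direction among the named genes. The line difference also moved to 291 without a filter on low values and to 39 with a filter of 5 TPM. Leaving out each library in turn gave 1366 to 2196 calls for ASO3 over control, 1582 (without ASO1 replicate 4; 1633 without ASO1 replicate 5) to 2212 for ASO3 against ASO1, and 21 (without NCI-H460 control replicate 1) to 157 (without ASO3 replicate 3) for the line difference, where every library except A549 control replicate 5 moved the count by over 1.5 times. Pseudocounts, scaling and the variance trend kept the count for ASO3 over control between 1973 and 2048.

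Of 145 named genes called, 72 kept their call under every alternative, 70 lost it with only the groups compared (12 with the block added), 38 without at least 1 single library and 12 with median-of-ratios scaling. Signs turned for 3 named genes, none of them called: DDIT3 was -0.10 without control replicate 3 and -0.39 without control replicate 4, and ranged from -0.39 to 1.03 over single libraries left out; PCNA was -0.061 without ASO3 replicate 3 and -0.056 without control replicate 5, and ranged from -0.061 to 0.10; and TSC22D3 was -0.098 without control replicate 3 and -0.091 without control replicate 4, and ranged from -0.098 to 0.59. For DDIT3 and TSC22D3 the remaining control libraries include replicate 5, which is high; the cause for PCNA was not tested. Without read counts, the depth behind low genes such as AC015712.6 is unknown and no interval could be given.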
